A study of Homo sapiens with 23 samples.

Results

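The expression of 41 nuclear receptor genes, chosen by gene symbol among the 60564 genes listed in each library, was examined in 2 human cell lines. Caco-2 cells derive from a human intestinal tumour and HepG2 cells from a human hepatocellular carcinoma, and both are established lines. Both were kept in a microfluidic chip, either alone (mono-culture) or with the other line (co-culture), and received 1 mM free fatty acids (FFAs; palmitic and oleic acid) or none (control) for 1 day, which gave 8 groups and 23 libraries. Each group had 3 libraries, apart from the 2 of control Caco-2 cells in co-culture. The labels number the libraries without naming separate chips or cultures, while the study's methods describe independent experiments and biological replicates without tying them to the numbers. p-values measure the spread between these libraries. Each line stands for 1 tumour, so a difference between the lines is a difference between these 2 lines and not between gut and liver.

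Nuclear receptors are transcription factors, most of which bind DNA as pairs and many of which are switched on by small lipophilic ligands: fatty acids for the peroxisome proliferator-activated receptors (PPARs), oxysterols for the liver X receptors (LXRs), vitamin D for VDR, foreign chemicals for PXR and CAR, and retinoids, thyroid hormone and steroids for others. Many form pairs with a retinoid X receptor (RXR). Others, such as the COUP-TF, REV-ERB and NR4A receptors, act without a classical hormone, and HNF4A and LRH-1 maintain genes of hepatocytes and enterocytes.

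Levels are given in TPM, a share of all transcripts in a library that is scaled by transcript length and therefore allows genes to be compared. TPM hold no read counts, so the depth is unknown and a gene at 0 TPM is only listed at 0. The number of genes above 0 TPM ranged from 19259 to 23689. In bulk RNA, fewer cells of a kind and less RNA per cell cannot be told apart. The intestinal regulator CDX2 and the adhesion protein gene CDH17 averaged 86.6 and 407 TPM in Caco-2 and 0.28 and 0.68 TPM in HepG2 libraries, whereas the intestinal genes CDX1, GPA33 and LGALS4 were low in Caco-2 cells (0.0391, 1.196 and 5.13 TPM). The intestinal marker VIL1 averaged 465 TPM in Caco-2 and 204 TPM in HepG2 cells. All 8 liver markers used to check HepG2 cells were also above 0 TPM in every Caco-2 library. They summed to 4730 to 6541 TPM in mono-cultured and 5382 to 6917 TPM in co-cultured Caco-2 libraries. The 8 intestinal markers summed to 880 to 1043 and 945 to 1173 TPM in these libraries. TF, the gene of the plasma iron carrier transferrin, averaged 7428 TPM in HepG2 cells. It stood at 42.8 and 133 TPM in replicate 1 of the co-cultured control and FFAs groups of Caco-2 cells, against 4.17 to 10.2 TPM in the other 9 Caco-2 libraries.

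Upstream sequence is shown for 3 members whose levels are described below, with a short motif in capitals. The sequences are the 250 bases before the RefSeq transcription start on GRCh38.p14, on the strand of the gene, 5′ to 3′. NR5A1 (chr9:124507400-124507649, minus strand) was the member with the greatest difference between the lines, and its capitals mark an E-box, CACGTG. RARB (chr3:25428013-25428262, plus strand) was higher in Caco-2 than in HepG2 libraries, and its capitals mark the retinoic acid response element through which retinoic acid receptors are known to act on this promoter. PPARG (chr3:12288820-12289069, plus strand) had a lower mean with FFAs in each line and culture, and its capitals mark the half-site AGGTCA that many nuclear receptors recognise.
NR5A1: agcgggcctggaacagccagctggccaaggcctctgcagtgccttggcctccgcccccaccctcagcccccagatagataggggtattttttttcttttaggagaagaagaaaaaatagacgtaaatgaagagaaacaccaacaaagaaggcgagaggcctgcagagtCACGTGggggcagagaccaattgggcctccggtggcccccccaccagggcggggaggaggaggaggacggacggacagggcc
RARB: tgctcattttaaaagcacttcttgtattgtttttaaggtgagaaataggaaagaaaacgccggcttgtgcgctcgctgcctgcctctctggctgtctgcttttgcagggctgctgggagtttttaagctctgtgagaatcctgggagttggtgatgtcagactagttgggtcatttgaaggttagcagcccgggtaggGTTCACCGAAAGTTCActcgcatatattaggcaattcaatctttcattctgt
PPARG: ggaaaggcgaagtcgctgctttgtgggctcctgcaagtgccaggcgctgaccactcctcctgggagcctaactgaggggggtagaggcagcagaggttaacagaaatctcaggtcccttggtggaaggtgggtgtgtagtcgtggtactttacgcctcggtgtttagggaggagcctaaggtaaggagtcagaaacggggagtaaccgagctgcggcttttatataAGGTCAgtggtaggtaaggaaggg
Searched on both strands over 35116 RefSeq windows from 250 bases before to 50 after a start, AGGTCA occurred in 13.8% of all windows and in 15.9% of the 88 windows of the 37 members that had one. CACGTG occurred in 7.26% of all windows and 10.2% of the members' windows. The 16-base RARB element occurred in 1 window, that of RARB. These motifs do not overlap one another in the sequences shown, and a match of letters is a description only.

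In Caco-2 cells, 20 of the 41 receptors averaged at least 10 TPM, 10 averaged 1 to 10 TPM and 11 were under 1 TPM. The corresponding numbers in HepG2 cells were 18, 10 and 13. The receptors summed to 720 to 1010 TPM in a Caco-2 library and to 495 to 608 TPM in a HepG2 library. HNF4A (chromosome 20), a regulator of hepatocyte and enterocyte genes, had the highest mean in either line, 111 ± 16.6 TPM (SD, n = 11) in Caco-2 and 85.3 ± 15.4 TPM (SD, n = 12) in HepG2 cells. NR2F6, an orphan receptor of the COUP-TF subfamily, followed at 110 ± 10.9 and 69.4 ± 7.11 TPM, so that these receptors differed by less than their spread over libraries in Caco-2 cells. Next in Caco-2 cells came NR4A1 (98.8 ± 66.0 TPM), the oxysterol receptor LXRα encoded by NR1H3 (78.5 ± 10.2 TPM) and the mitochondrial regulator ESRRA (54.1 ± 5.53 TPM). In HepG2 cells the next were ESRRA (41.1 ± 5.87 TPM), LXRβ encoded by NR1H2 (34.1 ± 3.65 TPM) and the testicular receptor NR2C1 (32.2 ± 6.29 TPM), and the ranges of all 3 overlapped.

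**Figure D1:**
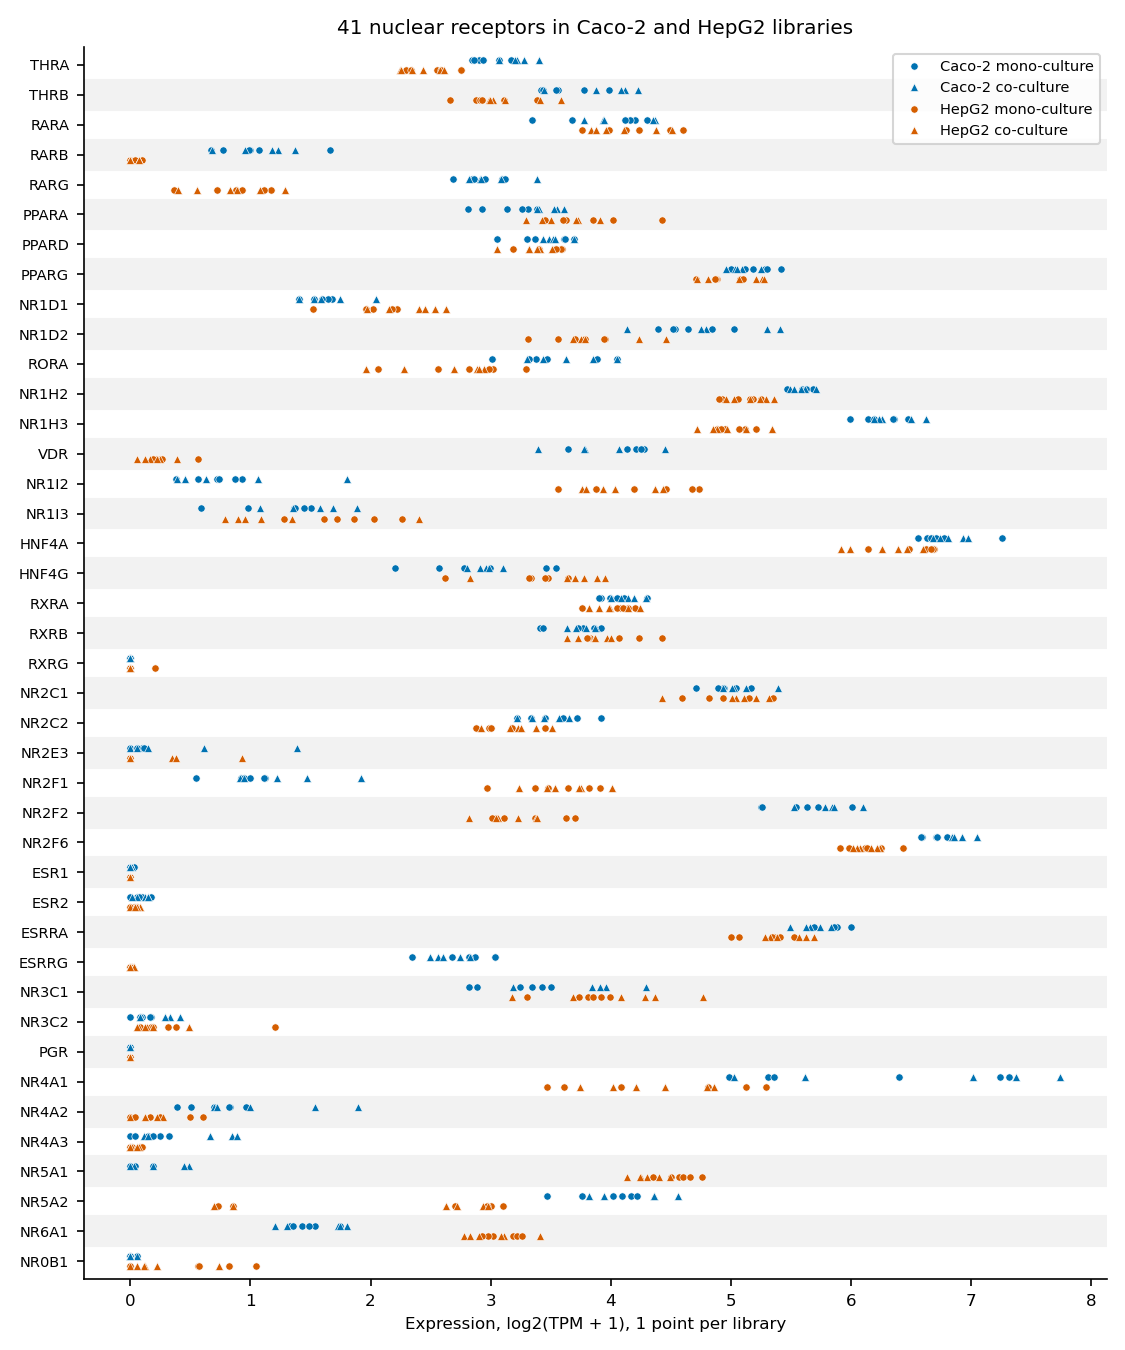
Expression of all 41 receptors on the log2(TPM + 1) scale (x axis), with 1 point per library, Caco-2 in blue and HepG2 in orange, circles for mono-culture and triangles for co-culture. NR5A1, NR1I2, VDR and ESRRG form separate clouds for the 2 lines, NR4A1 is spread widely, and NR5A2 in HepG2 cells splits into 2 clouds.

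Among the fatty acid receptors, PPARG, the PPAR of lipid storage, was the highest in both lines, at 34.8 ± 3.63 TPM (SD, n = 11) in Caco-2 and 31.0 ± 4.50 TPM (SD, n = 12) in HepG2 cells. PPARA, which drives fatty acid oxidation, averaged 8.995 and 12.4 TPM, and PPARD, its widely expressed relative, 10.3 and 9.64 TPM. Of the common partners, RXRA and RXRB ranged from 9.63 to 20.5 TPM over all libraries, while RXRG was listed at 0 in 22 of the 23. Of the receptors that pair with them, the PPARs were within a narrow range in both lines, whereas VDR and PXR were each low in one line. VDR, the vitamin D receptor, ran from 9.49 to 20.9 TPM (median 16.5) in Caco-2 and from 0.04 to 0.48 TPM (median 0.165) in HepG2 libraries. PXR, the sensor of drugs encoded by NR1I2, showed the opposite order, with 0.30 to 2.50 TPM (median 0.65) in Caco-2 and 10.8 to 25.6 TPM (median 16.4) in HepG2 libraries. CAR, the related receptor encoded by NR1I3, was low in both, at 1.61 ± 0.604 TPM (SD, n = 11) and 2.07 ± 1.18 TPM (SD, n = 12).

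Among the retinoid receptors, RARA was at 15.5 and 17.2 TPM in Caco-2 and HepG2 cells, whereas RARG averaged 6.90 and 0.838 TPM. RARB ran from 0.59 to 2.16 TPM in Caco-2 libraries and from 0 to 0.07 TPM in HepG2 libraries. Both thyroid hormone receptors had the higher mean in Caco-2 cells, THRA at 7.56 and 4.62 TPM and THRB at 12.9 and 7.61 TPM. Of the clock receptors, the repressor REV-ERBβ (NR1D2; 27.0 and 13.5 TPM) exceeded REV-ERBα (NR1D1; 2.05 and 3.59 TPM) in every library, and the activator RORA stood at 11.3 and 5.73 TPM. Of the COUP-TF receptors, NR2F2 averaged 51.3 TPM in Caco-2 and 8.55 TPM in HepG2 cells and NR2F1 1.21 and 11.2 TPM, so that the more abundant of these close relatives differed between the lines. HNF4G, the paralog of HNF4A, averaged 6.89 and 10.4 TPM, and the testicular receptor NR2C2 10.4 and 8.13 TPM.

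Most classical steroid receptors were near 0. The glucocorticoid receptor NR3C1 was the exception, at 10.8 ± 3.88 TPM (SD, n = 11) in Caco-2 and 14.8 ± 4.97 TPM (SD, n = 12) in HepG2 cells. The progesterone receptor PGR was listed at 0 in every library and the estrogen receptor ESR1 in every HepG2 library, and ESR2 did not exceed 0.13 TPM. The mineralocorticoid receptor NR3C2 reached 1.31 TPM in 1 mono-cultured control HepG2 library and stayed at or under 0.40 TPM in the others. Of the estrogen-related receptors, ESRRG ran from 4.09 to 7.20 TPM in Caco-2 and from 0 to 0.02 TPM in HepG2 libraries. The photoreceptor receptor NR2E3 and NR0B1, which encodes the repressor DAX-1, averaged under 1 TPM in both lines, and germ cell nuclear factor (NR6A1) averaged 1.89 and 7.40 TPM. NR5A1, which encodes the steroidogenic factor SF-1 of adrenal and gonad, ran from 16.6 to 26.2 TPM (median 20.8) in HepG2 libraries. In Caco-2 libraries it was between 0 and 0.40 TPM, and its 2 highest values there, 0.40 and 0.36 TPM, were those of the libraries with raised TF. The part of RNA from HepG2 cells in these values was not tested.

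The early-response receptor NR4A1 (Nur77; chromosome 12, 52022832 to 52059507 of GRCh38) varied most among the members in Caco-2 cells. Its values were 30.6, 38.6 and 150 TPM in mono-cultured control, 83.5, 39.99 and 159 TPM in mono-cultured FFAs-treated, 48.0 and 164 TPM in co-cultured control, and 31.6, 213 and 128 TPM in co-cultured FFAs-treated libraries. High and low libraries thus occurred in every group. By replicate number, the 3 libraries numbered 3 averaged 1.22 above the other 8 in log2(TPM + 1), a difference reached by 0.365% of genes. The 4 numbered 1 averaged 1.26 below the other 7 (0.245% of genes). Both sets overlapped with the other libraries, and the part of the number was not tested. The residual SD of NR4A1 within groups was 1.22 on the log2(TPM + 1) scale, a spread reached by 0.597% of the genes tested, for which the median was 0.202. In HepG2 cells NR4A1 ran from 10.1 to 38.1 TPM, with all 4 libraries numbered 1 below the other 8, and its residual SD of 0.70 was second to NR5A2 among the members. NR4A1 shares 754 exon bases with the antisense gene NR4A1AS (6.02 and 1.03 TPM), whose reads cannot be told apart from it without strand. Its relatives NR4A2 and NR4A3 did not exceed 2.73 and 0.85 TPM.

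The lines were first compared in mono-cultured control cells. limma was fitted to log2(TPM + 1) of the 16495 genes whose mean reached 1 TPM in any group, which included 33 receptors. RXRG, NR2E3, ESR1, ESR2, NR3C2, PGR, NR4A3 and NR0B1 were not tested. NR5A1 reached this mean only in HepG2 groups, and RARB, RARG, VDR, ESRRG and NR4A2 only in Caco-2 groups. These receptors entered the fit only through the line where they are high. Their line differences, p-values and calls are therefore a description. Of the 33, 22 had a Benjamini-Hochberg adjusted p under 0.05, 8 higher in HepG2 and 14 higher in Caco-2 cells. Over all genes 62.4% were called, so the share of receptors was near the background. Averaged over the 4 conditions, 28 of the 33 were called (9 higher in HepG2, 19 in Caco-2 cells), against 79% of all genes. The median of all genes was -0.20 in the first and -0.24 in the second of these comparisons, which median-of-ratios scaling and quantile normalization removed. With these scalings, 10 of 21 and 12 of 22 called receptors were higher in HepG2 cells in mono-cultured control, and 12 of 27 and 14 of 29 over the 4 conditions. By libraries without overlap in mono-cultured control, 7 of the 33 receptors were higher and 15 lower in HepG2 cells. The share of all genes without overlap between the lines was not counted.

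The receptors that were higher in HepG2 cells by the greatest margin were NR5A1, NR1I2, NR2F1 and NR6A1. In mono-cultured control, NR5A1 (chromosome 9, 124481236 to 124507420) was at 26.2, 22.7 and 19.4 TPM in HepG2 and at 0.03, 0 and 0 TPM in Caco-2 cells. The lines did not overlap, and the difference in log2(TPM + 1) was 4.55 (SE 0.16, limma adjusted p = 5.15e-15), or 4.75 relative to the median of all genes. NR1I2 (chromosome 3, 119780484 to 119818487) had 21.0, 25.6 and 10.8 TPM against 0.65, 0.90 and 0.30 TPM, a difference of 3.58 (SE 0.32, limma adjusted p = 9.09e-09). NR2F1 and NR6A1 differed by 2.69 and 1.71 on the same scale. The other called receptors that were higher in HepG2 cells were PPARA, NR3C1, NR1D1 and RXRB, by 0.48 to 0.77. NR2F1 overlaps NR2F1-AS1 on the opposite strand by 158 exon bases, and this antisense gene was at 0.475 TPM in Caco-2 and 2.17 TPM in HepG2 cells.

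VDR, ESRRG, RARG, NR2F2, NR5A2 and NR1H3 led the receptors that were higher in Caco-2 cells. VDR (chromosome 12, 47841537 to 47943048) had 16.5, 18.4 and 11.5 TPM in Caco-2 and 0.19, 0.48 and 0.16 TPM in HepG2 cells in mono-cultured control. Its HepG2 minus Caco-2 difference in log2(TPM + 1) was -3.67 (SE 0.19, limma adjusted p = 1.64e-12), or -3.47 relative to the median of all genes. The corresponding differences were -2.74 for ESRRG, -2.01 for RARG, -1.92 for NR2F2 and -1.15 for NR1H3, each with a limma adjusted p of 2.39e-06 or smaller, and their libraries did not overlap between the lines. NR1H3 shares 189 exon bases with ACP2 on the opposite strand, which averaged 77.2 TPM in Caco-2 and 47.5 TPM in HepG2 cells. The difference of NR5A2 was -1.68 (SE 0.67, limma adjusted p = 0.0361). Its call rested on 1 library, since without replicate 3 of mono-cultured control HepG2 cells the difference was -0.95 (limma adjusted p = 0.231). The lines did not overlap for NR5A2 either, at 10.1 to 22.6 TPM in all Caco-2 and 0.62 to 7.57 TPM in all HepG2 libraries. Averaged over the 4 conditions, its difference was -1.90.

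RXRA, PPARD and THRA were the tested receptors with the smallest differences, -0.03 (95% confidence interval -0.32 to 0.26), 0.06 (-0.29 to 0.40) and -0.18 (-0.47 to 0.10). RXRA became 0.15 with median-of-ratios scaling and 0.20 with quantile normalization, and THRA 0.045 with the latter, so that their order between the lines is not set. HNF4A did not pass either in mono-cultured control (-0.24, limma adjusted p = 0.234), but was lower in HepG2 cells when averaged over the conditions (-0.38, limma adjusted p = 0.00064), a difference that was -0.15 with median-of-ratios scaling and -0.16 with quantile normalization. NR4A1 had a difference of -1.57 with an SE of 0.71 (limma adjusted p = 0.0637) in mono-cultured control.

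**Figure D2:**
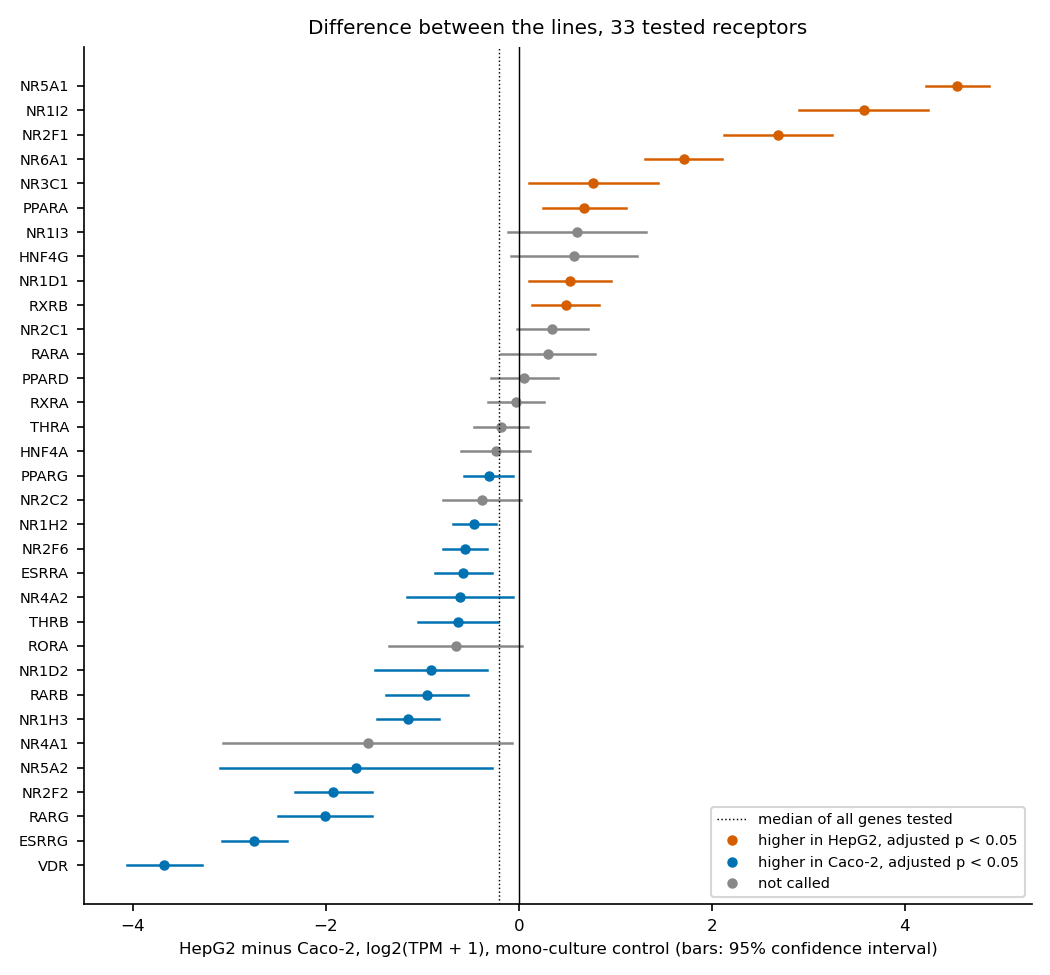
HepG2 minus Caco-2 difference in log2(TPM + 1) in mono-cultured control cells (x axis) for the 33 receptors tested, with 95% confidence intervals; orange and blue points had an adjusted p under 0.05, and the dotted line is the median of all genes at -0.20. NR5A1 at 4.55 and VDR at -3.67 lie at the ends, and the intervals of NR5A2 and NR4A1 are the widest.

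LRH-1, encoded by NR5A2 (chromosome 1, 200027614 to 200177420), is known as an activator of bile acid synthesis genes, and in HepG2 cells its libraries divided by the replicate number in the labels. It had 7.57, 7.03 and 0.81 TPM in mono-cultured control, 5.53, 6.82 and 0.66 TPM in mono-cultured FFAs-treated, 6.65, 6.88 and 0.81 TPM in co-cultured control, and 5.2001, 5.60 and 0.62 TPM in co-cultured FFAs-treated libraries, in the order of replicates 1, 2 and 3. All 4 libraries numbered 3 were below all 8 others, with means of 0.725 and 6.41 TPM, a ratio of 8.84. On the log2(TPM + 1) scale the difference was -2.10, and 27 of 14255 genes, or 0.189%, differed by as much. In Caco-2 cells NR5A2 ran from 10.1 to 22.6 TPM and overlapped between the replicate numbers. This pattern was noticed in the values and is a description with no test.

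The libraries numbered 3 in HepG2 cells stood apart more broadly. In 11.7% of the genes tested they did not overlap with the other 8 libraries, against 0.765% for number 1 and 1.05% for number 2, and the receptors without overlap were 2 of 28, NR5A2 and NR1D2. NR1D2 was higher, with 14.4 to 20.9 TPM against 8.95 to 12.8 TPM. Of the 9 tested genes on a list of HNF4A and LRH-1 targets, 2 were lower and 2 higher without overlap. CYP7A1, the rate-limiting enzyme of bile acid synthesis, was at 0.16 to 1.01 TPM in the libraries numbered 3 and at 5.68 to 25.6 TPM in the others. SLC51A, 1 subunit of the bile acid exporter of the basolateral membrane, had 1.83 to 3.63 TPM against 4.26 to 11.5 TPM, while its partner subunit SLC51B had 10.2 to 20.2 TPM against 1.94 to 9.77 TPM. APOB, the structural protein of very low density lipoproteins, was the other higher gene. NR0B2, the bile acid-induced repressor SHP that LRH-1 is known to activate, was at 59.5 to 84.3 TPM against 134 to 396 TPM. NR0B1, too low to be tested, was at 0 to 0.04 TPM against 0.08 to 1.07 TPM. The labels give no batch for the replicate numbers, and their part in these values was not tested.

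**Figure D3:**
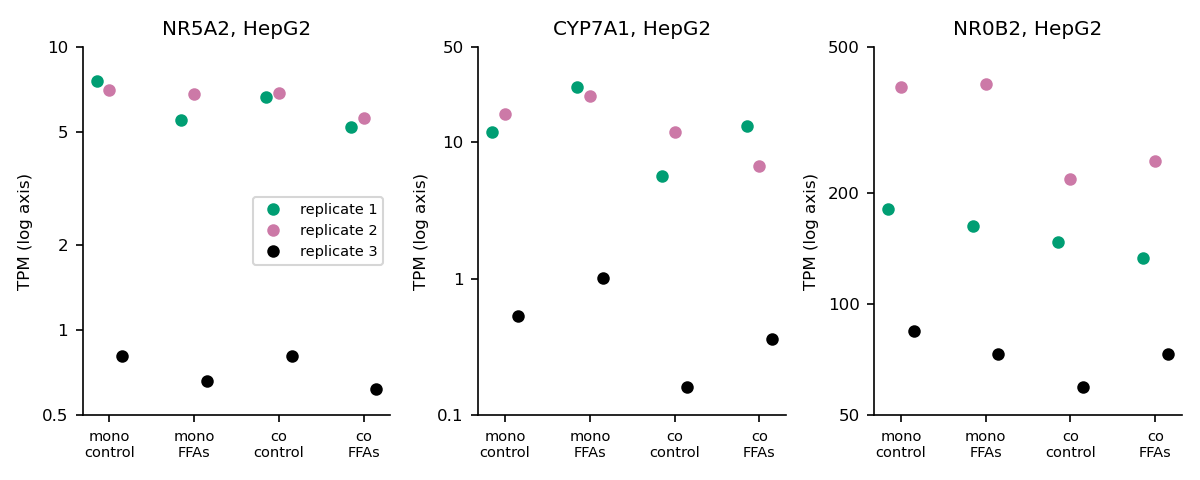
TPM (log axes) of NR5A2, CYP7A1 and NR0B2 in the 12 HepG2 libraries by group (x axis) and replicate number (colour), with 1 point per library. In every group the library numbered 3 (black) is the lowest for all 3 genes, at 0.62 to 0.81 TPM for NR5A2.

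The effect of FFAs on the receptors was compared within each line and culture, in a fit of the 4 groups of that line. Of the 41 receptors, 32 in Caco-2 and 28 in HepG2 cells reached a mean of 1 TPM in some group and were tested among 15081 and 14255 genes. The receptors tested in HepG2 cells lacked RARB, RARG, VDR, ESRRG and NR4A2 but included NR5A1, the only one not tested in Caco-2 cells alone. With FFAs, limma called 0 receptors in either culture of either line. The shares of all genes called were 0% in mono-cultured and 0.0199% in co-cultured Caco-2 cells and 0% in both cultures of HepG2 cells. At an unadjusted p under 0.05 there were 2 receptors in mono-cultured and 1 in co-cultured Caco-2 cells, of 32, and 0 and 1 in HepG2 cells, of 28, where the shares of all genes were 2.61%, 2.83%, 2.24% and 1.84%. Comparisons within a line share libraries, so their values are not independent of one another.

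PPARG, chosen after its values were seen, had a lower mean with FFAs in all 4 line and culture combinations. The share of all genes with the same sign in all 4 was not counted. These combinations share no library, but co-cultured lines were joined by circulating medium on a chip, so they may not be independent. In mono-cultured Caco-2 cells PPARG was at 37.9, 41.7 and 38.4 TPM in control and 30.9, 35.4 and 33.7 TPM in FFAs-treated libraries. All FFAs-treated libraries were below all controls, the difference in log2(TPM + 1) was -0.23 (SE 0.09), and the unadjusted p of 0.0317 became an adjusted p of 1 with limma. In co-cultured Caco-2 cells it was at 33.2 and 37.1 TPM in control and 31.8, 32.2 and 30.2 TPM with FFAs, again without overlap (-0.16, SE 0.11). In mono-cultured HepG2 cells the controls at 32.8, 28.6 and 33.3 TPM were above the FFAs-treated libraries at 28.3, 25.1 and 28.1 TPM (-0.21, SE 0.15). In co-cultured HepG2 cells the groups overlapped, with 37.3, 32.4 and 35.9 TPM in control and 25.3, 27.0 and 37.6 TPM with FFAs (-0.25, SE 0.15). None of these passed the adjusted threshold. Without regard to direction, libraries did not overlap for 7.13%, 17.2%, 6.47% and 5.42% of all genes in these comparisons, in the order given.

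The other receptors with the smallest p under FFAs differed between the lines. In Caco-2 cells, NR2F2 had 37.0, 37.4 and 48.7 TPM in mono-cultured control and 51.8, 45.7 and 63.2 TPM with FFAs, groups that overlapped (0.38, SE 0.17, limma adjusted p = 1). VDR had 12.8 and 9.49 TPM in co-cultured control and 20.9, 12.7 and 15.8 TPM with FFAs, with a difference of 0.51 (SE 0.22, limma adjusted p = 1) that also overlapped. NR1I2 was tested in Caco-2 cells only because the mean of co-cultured FFAs-treated libraries (1.09, 2.50 and 0.37 TPM) passed 1 TPM, so its difference there (0.60, SE 0.36) is a description. Its co-cultured controls were at 0.55 and 0.31 TPM. In HepG2 cells, RARA in co-culture had 21.8, 19.7 and 16.2 TPM in control and 14.6, 13.2 and 13.7 TPM with FFAs, without overlap (-0.44, SE 0.19, limma adjusted p = 1). In mono-culture RARA overlapped, with 23.3, 21.5 and 14.9 TPM and 16.5, 17.9 and 12.6 TPM (-0.32, SE 0.19). NR2C1 had differences of -0.36 (SE 0.20) in mono-culture and -0.34 (SE 0.20) in co-culture. Averaged over both cultures, limma again called 0 receptors. At an unadjusted p under 0.05 there were 2 of 32 in Caco-2 (3.99% of all genes) and 2 of 28 in HepG2 cells (3.49% of all genes), and the smallest adjusted p was 0.99 for PPARG in Caco-2 and 0.9999 for RARA in HepG2 cells.

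**Figure D4:**
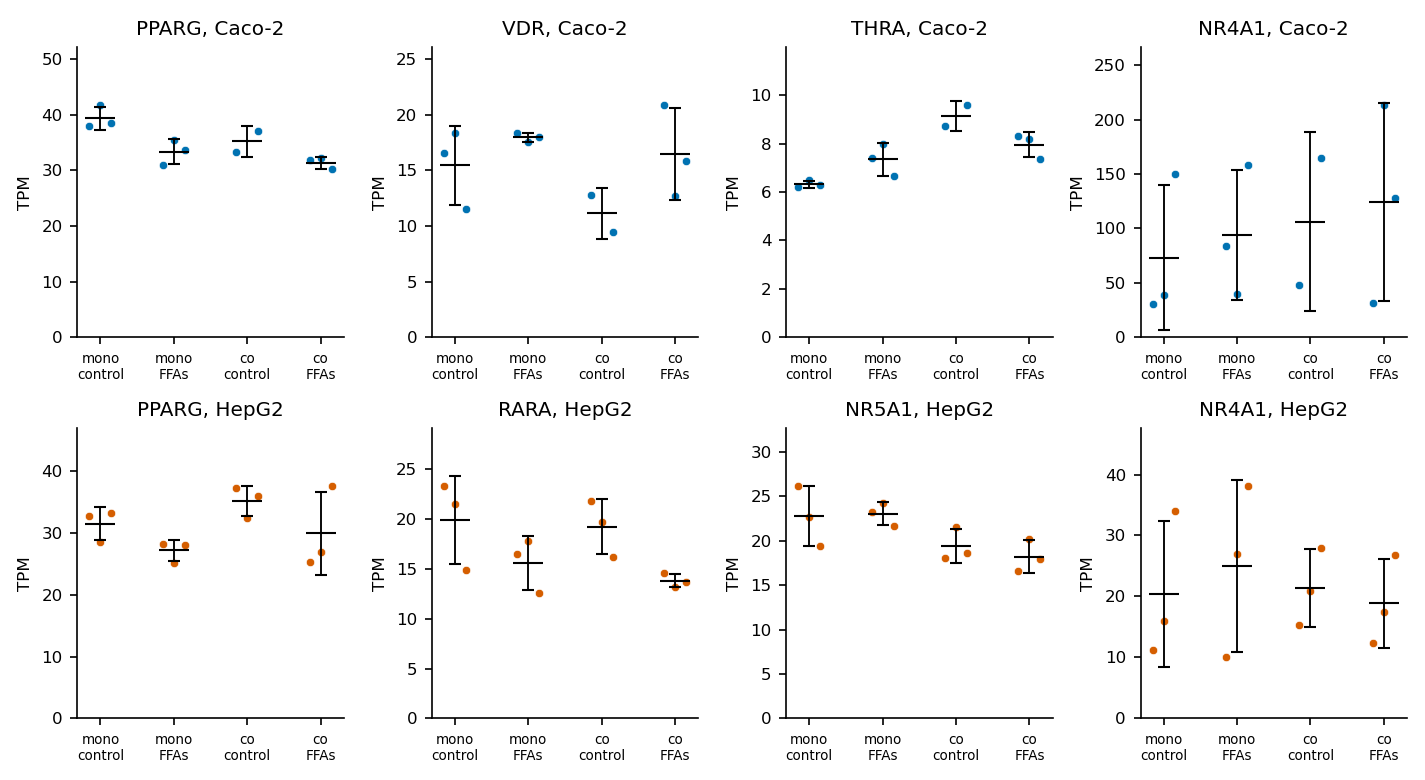
TPM (y axes from 0) of selected receptors in the 4 groups of a line, with 1 point per library and the mean and SD as bars (n = 3, or 2 for co-cultured control Caco-2 cells). PPARG is below its control mean with FFAs in all 4 pairs of groups, and high and low NR4A1 libraries occur in each Caco-2 group.

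The effect of co-culture addresses whether the neighbouring line changed the receptors. Here too limma called 0 receptors with and without FFAs in either line, against 0.0199% of all genes in Caco-2 cells without FFAs and 0% in the other 3 comparisons. In Caco-2 cells without FFAs, 5 of 32 receptors had an unadjusted p under 0.05 (5.43% of all genes), all higher in co-culture, and with FFAs 0 did (6.09% of all genes). The corresponding numbers in HepG2 cells were 0 and 1 of 28, against 7.53% and 5.63% of all genes. The median difference of the 32 receptors in Caco-2 cells was 0.13 without and 0.10 with FFAs, with 25 and 26 above 0, where the median of all genes was 0.04 and 0.01.

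In Caco-2 cells, the 5 receptors were THRA, PPARA, NR2F6, NR3C1 and NR2F2, which were higher in both co-cultured libraries than in all mono-cultured ones. Over all 32 receptors, 6 were higher and 1 lower without overlap, which is near the 23.1% of all genes that did not overlap. NR2F1 was the other higher one, and PPARG the lower one, with 33.2 and 37.1 TPM in co-culture against 37.9, 41.7 and 38.4 TPM. THRA (chromosome 17, 40058290 to 40093867) had 6.20, 6.48 and 6.28 TPM in mono-cultured and 8.71 and 9.59 TPM in co-cultured control libraries, a difference of 0.47 in log2(TPM + 1) (SE 0.14, limma adjusted p = 0.867). It shares 473 exon bases with NR1D1 on the opposite strand, which averaged 2.05 TPM in this line, and reads of this stretch cannot be told apart without strand. PPARA had 8.94, 6.63 and 6.0002 TPM against 10.7 and 10.6 TPM (0.52, SE 0.17, limma adjusted p = 0.867). The differences of NR3C1, NR2F2 and NR2F6 were 0.77, 0.43 and 0.28. With FFAs, NR2F6 had 104, 94.96 and 110 TPM in mono-culture and 114, 121 and 115 TPM in co-culture (0.18, SE 0.09, limma adjusted p = 0.846). ESRRA had 58.1, 57.9 and 56.9 TPM against 55.9, 43.9 and 48.4 TPM, all lower (-0.22, SE 0.11, limma adjusted p = 0.834), and it shares 284 exon bases with TRMT112 (256 TPM) on the opposite strand. Averaged over both treatments, limma called 0 receptors, with 5 of 32 at an unadjusted p under 0.05 against 10.5% of all genes, and the smallest adjusted p was 0.308, for NR2F6. Of the 11 Caco-2 libraries, the 2 with raised TF belong to these co-cultured groups, and without them limma again called 0 receptors, but co-cultured control cells then had 1 library, whose spread was taken from the other groups, so this says little about the comparisons that use it.

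In HepG2 cells, NR5A1 with FFAs had 23.2, 24.2 and 21.7 TPM in mono-culture and 16.6, 20.2 and 17.9 TPM in co-culture. All co-cultured libraries were below the mono-cultured ones (-0.33, SE 0.14, limma adjusted p = 0.869). NR1I3 was at 2.64, 3.08 and 2.06 TPM against 0.73, 1.54 and 0.94 TPM (-0.80, SE 0.38, limma adjusted p = 0.907), also without overlap, and it shares 663 exon bases with TOMM40L (19.6 TPM) on the opposite strand. HNF4A was the third without overlap, of 28, where 9.60% of all genes did not overlap. Without FFAs, the smallest p-values were those of NR2F2, with 12.03, 11.4 and 7.24 TPM in mono-culture and 8.37, 7.35 and 6.05 TPM in co-culture, and of RXRB, with 17.9, 20.5 and 13.2 TPM against 14.6, 11.4 and 13.6 TPM. Both overlapped (-0.42 and -0.34, limma adjusted p = 0.685 and 0.701). RXRB shares 361 exon bases with SLC39A7 (119 TPM) on the opposite strand. Averaged over both treatments, limma called 0 receptors against 0.0561% of all genes, 2 of 28 had an unadjusted p under 0.05 against 12.5% of all genes, and the smallest adjusted p was 0.293, for NR5A1.

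**Figure D5:**
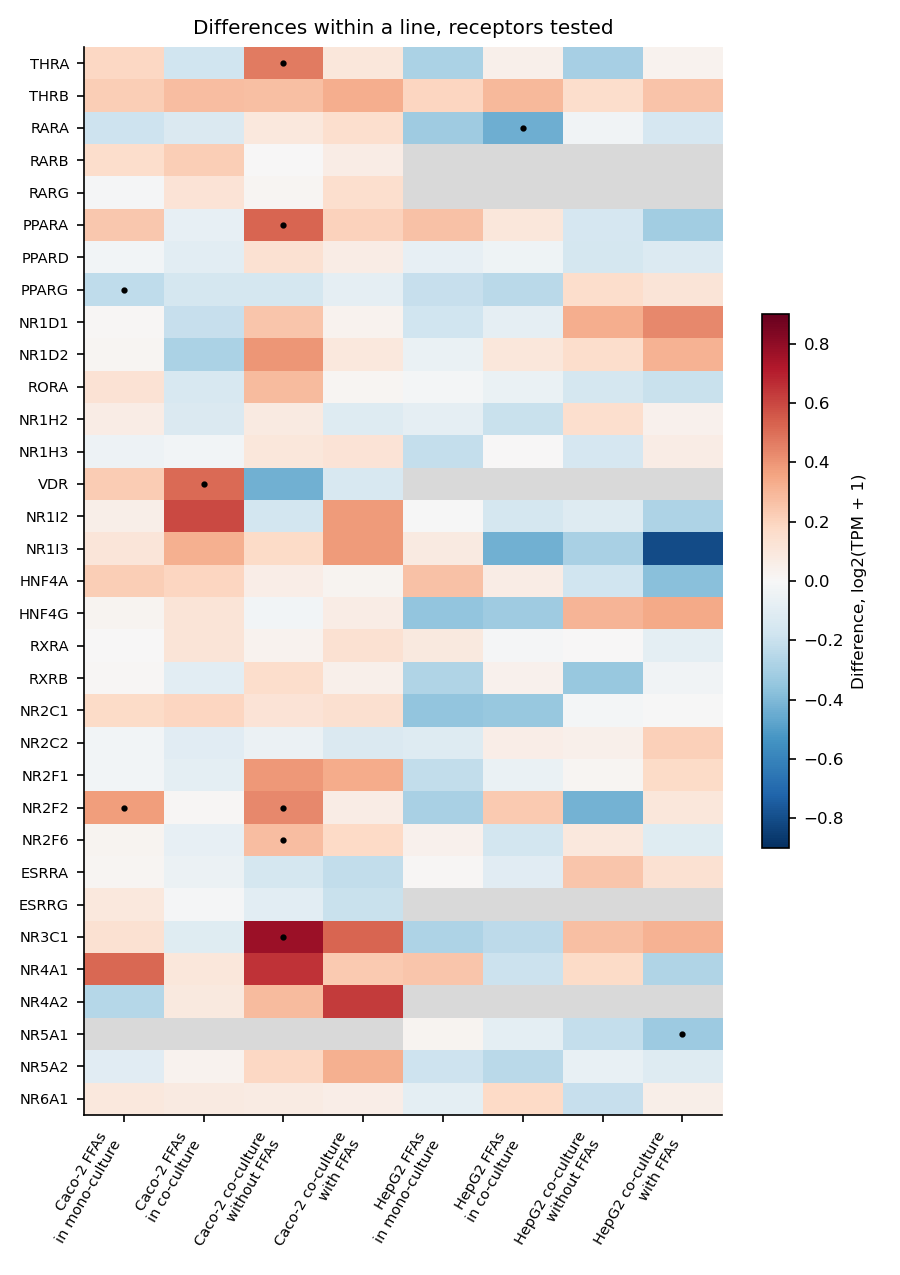
Differences in log2(TPM + 1) for FFAs against control and co-culture against mono-culture within each line (columns), for receptors tested in at least 1 line (rows); grey marks receptors not tested in that line, and dots an unadjusted p under 0.05. The dots are 8 in Caco-2 and 2 in HepG2 cells, and no receptor passed the adjusted threshold.

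The FFAs by culture interaction, which asks whether the effect of FFAs differed between the cultures, called 0 receptors and 0 genes in either line with limma, with 0 receptors at an unadjusted p under 0.05. The 4 groups of a line were also compared together by the criteria of the study's methods (one-way analysis of variance, unadjusted p under 0.05, and some pair of group means at least 0.263 apart in log2(TPM + 1)). By these criteria, which are looser than a test with adjustment, 4 receptors in Caco-2 cells passed (THRA, PPARG, NR2F6 and PPARA), of 39 above 0 TPM, against 3.08% of all genes. Among these 4, PPARA had the largest difference between group means, 0.52, while receptors that did not pass, such as NR3C1 at 0.77, had larger ones. In HepG2 cells 0 of 39 passed, against 3.56% of all genes. After Benjamini-Hochberg adjustment 0 passed in either line.

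The genes with which these receptors work were read from 12 lists of 92 genes in all. Of these, 68 were tested in Caco-2 and 71 in HepG2 cells, and in the 7 comparisons within each line limma called 1 gene, 1 time. APOC3, a lipoprotein gene on the list of HNF4A and LRH-1 targets, was lower in co-cultured HepG2 cells averaged over both treatments (-0.73, SE 0.11, limma adjusted p = 0.0478), where 0.0281% of all genes were called lower. Its 6 co-cultured libraries ran from 231 to 332 TPM and its 6 mono-cultured ones from 376 to 594 TPM. Of the 9 genes tested on this list, 8 had a value below 0 in that comparison, with a median of -0.43 where that of all genes was -0.02. This was not particular to the list, since the PPAR targets had a median of -0.58 there. Of these PPAR targets, 2 of 7 were above 0 and none was called. All 8 PPAR targets tested in Caco-2 cells had a value above 0 for FFAs averaged over both cultures, with a median of 0.35 against 0.01 for all genes, and none was called. In HepG2 cells 6 of 7 were above 0, with a median of 0.15. The 4 LXR targets tested in Caco-2 cells were all below 0, led by SREBF1, the regulator of fatty acid synthesis (-0.52, SE 0.10, limma adjusted p = 0.705). Of the LXR targets in HepG2 cells, 2 of 6 were above 0, with a median of -0.14. No coactivator or corepressor was called, and the medians of these lists lay between -0.04 and 0.05 in the averaged comparisons. For co-culture averaged over treatments, 19 of 71 HepG2 list genes (26.8%) were under 0.05 by unadjusted limma p, against 12.5% of all genes. In Caco-2 cells this share was 14.7% against 10.5%. For FFAs averaged over cultures it was 8.82% against 3.99% in Caco-2 and 8.45% against 3.49% in HepG2 cells. For the interaction it was 1.47% against 1.94% and 0% against 1.16%, in the same order. Whether the lists differ from all genes was not tested.

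The libraries of PPARGC1A, PPARGC1B, NR1H4, NR0B2 and CRABP1 did not overlap between the lines, but the share of all genes without such overlap was not counted. PPARGC1A, the coactivator of PPARA, ESRRA and HNF4A, was at 0.0964 ± 0.141 TPM (SD, n = 11) in Caco-2 and 21.0 ± 6.68 TPM (SD, n = 12) in HepG2 cells, and its relative PPARGC1B at 7.40 ± 1.49 and 1.195 ± 0.322 TPM. The bile acid receptor FXR (NR1H4) and its target NR0B2, which lie outside the 41, averaged 0.295 and 5.43 TPM in Caco-2 and 39.4 and 180 TPM in HepG2 cells. CRABP1, which binds retinoic acid in the cytoplasm, averaged 223 TPM in Caco-2 and 1.14 TPM in HepG2 cells. VDR was at 15.6 TPM in Caco-2 cells, and the vitamin D-degrading enzyme CYP24A1, a known target, was listed at 0 in 9 of their 11 libraries. CYP3A4, the classical target of PXR, averaged 0.174 TPM in HepG2 cells, where NR1I2 averaged 17.4 TPM.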

How the data were processed

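The data were mRNA-seq of 11 Caco-2 and 12 HepG2 libraries made with SMART-Seq v4, which does not mark strand. The labels gave each library its group and number. The labels name 0.5% serum during treatment, whereas the study's methods describe serum-free medium, and this could not be settled here. Their extraction text gives primary myoblasts, whereas the sample titles and the methods name Caco-2 and HepG2 cells. The libraries carried markers of these named lines. The albumin gene ALB averaged 28679 TPM in HepG2 and 483 TPM in Caco-2 libraries, and CDX2 0.28 and 86.6 TPM in the same order. The authors deposited TPM, 1 table per library. Per the methods, reads matching ribosomal, transfer RNA or mitochondrial sequence were removed with Bowtie2 2.1.0, the rest were aligned to GRCh38 with STAR 2.7.1a, and RSEM 1.3.0 gave the TPM.

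From the deposited TPM, log2(TPM + 1) was tested with limma 3.58.1 (R 4.3.3, eBayes with a trend), keeping genes whose mean reached 1 TPM in any group, in a fit of 4 groups per line (8 between lines), and Benjamini-Hochberg adjustment over all genes tested at 0.05. Fold changes on this scale understate the change of low genes. Python 3.11.15 was used for the rest. Gene positions came from GENCODE v44 and upstream sequences from RefSeq, both on GRCh38. The fit was tested on simulated data. The receptors, gene lists and tests were chosen with earlier results of these data known. Values are given for members called within a line, the 2 smallest p in each FFAs and co-culture comparison, the 5 highest means per line, and the 10 largest called and 3 smallest line differences. List genes were named where called, smallest in p or highest. PPARG in every comparison, NR4A1, NR5A2, CYP7A1, NR0B2, SLC51A, SLC51B, APOB, TF and the levels of other single genes were chosen after their values were seen. The analysis of variance criteria follow those in the study's methods. Alternatives were a pseudocount of 0.1, no filter or a mean of at least 5 TPM, median-of-ratios scaling, quantile normalization, no trend, only the groups compared, the replicate number as a block, and leaving out each library. Leaving out the 4 HepG2 libraries numbered 3 and the 2 Caco-2 libraries with raised TF was added after seeing the data.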

Additional observations from a re-analysis of the deposited data

Results flagged for a closer look

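THRA in Caco-2 cells had differences of opposite sign with FFAs in the 2 cultures. In mono-culture all 3 FFAs-treated libraries (7.41, 7.98 and 6.65 TPM) were above the controls (6.20, 6.48 and 6.28 TPM), a difference of 0.19 in log2(TPM + 1), and in co-culture all 3 (8.30, 8.19 and 7.38 TPM) were below both controls (8.71 and 9.59 TPM), a difference of -0.18. The interaction was -0.37 (SE 0.19, limma unadjusted p = 0.0831, adjusted p = 0.9999). THRA overlaps NR1D1 on the opposite strand, whose part was not tested. No other receptor separated in opposite directions in any pair of comparisons read, and groups of 2 or 3 libraries are too small for a test of outlying values.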

How the results depend on the processing

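The 0 receptors called in the 14 comparisons within a line stayed 0 under every alternative run, the replicate block included. Where co-cultured control Caco-2 cells kept 1 library, it was assumed to vary like the other groups. Left out 1 at a time, the libraries gave 17 to 23 called receptors for the line difference in mono-cultured control (22 with all) and 25 to 28 averaged over the conditions (28 with all), and the other alternatives gave 18 to 22 and 23 to 29. By the analysis of variance criteria, the 4 receptors in Caco-2 cells became 0 with adjusted p and 2 to 5 with single libraries left out, and the 0 in HepG2 cells became 0 to 4; counts of 2 came from leaving out co-cultured FFAs replicate 2 or 3, mono-cultured control replicate 2 or mono-cultured FFAs replicate 1 in Caco-2 cells. The 4 in HepG2 cells came from leaving out mono-cultured control replicate 3, with 2 without co-cultured control replicate 1 or 2 and 1 without co-cultured FFAs replicate 2 or 3.

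Same-numbered libraries did not pair by the rule used (every pair correlated over 0.1): their deviations from the group means correlated at -0.093 to 0.312 in Caco-2 (7 of 15 pairs over 0.1) and 0.028 to 0.601 in HepG2 cells (15 of 18), with medians of 0.088 and 0.305 against -0.12 and -0.23 between different numbers. Deviations within a group sum to 0, so values of same and different numbers are not independent, and their contrast is partly built in. The 6 pairs numbered 3 in HepG2 cells lay between 0.462 and 0.601. By mean correlation, 7 of 11 Caco-2 and 10 of 12 HepG2 libraries were closest to their own number, a hint from the data and not from the design. With the replicate block, 2 receptors met the criteria in HepG2 and 4 in Caco-2 cells, limma called 18 and 23 receptors in the line differences, and over all genes the averaged co-culture effect went from 8 to 492 genes in HepG2 and from 0 to 60 in Caco-2 cells.

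The line difference of RXRA reversed to 0.15 with median-of-ratios scaling, 0.20 with quantile normalization, 0.094 without the 4 HepG2 libraries numbered 3 (an alternative chosen after seeing the data), and 0.098 and 0.094 without mono-cultured control replicate 1 of Caco-2 or 3 of HepG2 cells, within a leave-one-out range of -0.13 to 0.098. PPARD reversed to -0.18 with the block and, in a leave-one-out range of -0.14 to 0.18, without mono-cultured control replicate 3 of Caco-2 cells, and THRA to 0.045 with quantile normalization. Averaged over the conditions, PPARG became 0.06 and 0.08, PPARD 0.12 and 0.23 and RXRA 0.16 and 0.24 under the scalings. NR5A2 lost its call in 9 alternatives (adjusted p up to 0.231). Without the 4 HepG2 libraries numbered 3, 20 and 27 receptors were called between the lines, and without the 2 Caco-2 libraries with raised TF, also left out after seeing the data, 22 and 27. The cause of these shifts was not tested.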
